A study of Mus musculus with 21 samples.

Results

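Expression of 9 genes tied to alternative macrophage activation and the response to interleukin-4 (IL-4) was described in 21 RNA-seq libraries of mouse macrophages. The genes were the rows of the deposited gene table whose Ensembl ID, with the version removed, maps to Il4ra, Stat6, Pparg, Ccl17, Ccl22, Ccl24, Tgm2, Chil3 or Retnla. All 9 were found among the 23250 genes of the table, and all 9 were among the 13468 genes that passed the filter on low counts. The members moved in different directions, so each gene is described on its own.

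The cells were bone-marrow-derived macrophages on the C57BL/6J background, grown for 7 days in medium containing GM-CSF (granulocyte-macrophage colony-stimulating factor). The study describes the cells of every group, controls included, as lacking the mannose receptor, the endocytic lectin encoded by Mrc1. Cells were left untreated (0 h), received FcMR, or received an isotype control, and were collected 4, 12 or 24 h after the addition. FcMR joins the Fc part of human IgG1 to the extracellular region of the mannose receptor, and the study asked how this soluble form acts on macrophages. Each of the 7 groups held 3 libraries. The labels do not say whether replicates came from separate mice or cultures, so the p-values measure the spread between these libraries, which may be technical. There was no untreated group at 4, 12 or 24 h, so in comparisons with untreated cells the added protein and the time since its addition cannot be told apart. No label names IL-4 or interleukin-13 among the agents given.

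As background, IL-4 binds a receptor whose signalling chain is IL-4Rα, the product of Il4ra, which also serves the interleukin-13 receptor. Janus kinases bound to the receptor phosphorylate STAT6, a transcription factor that moves to the nucleus and binds spaced TTC and GAA letters in target promoters and enhancers. PPARγ, a nuclear receptor for lipids encoded by Pparg, is raised both by IL-4 and by GM-CSF in macrophages and controls genes of fatty acid uptake and storage. Ccl17, Ccl22, Ccl24, Tgm2, Chil3 and Retnla are known targets of IL-4 in mouse macrophages, although several of them also answer to other signals.

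Library totals ran from 5532225 to 66729533 counts, so that 3 counts corresponded to between 0.0454 and 0.559 CPM (counts relative to a library total scaled by TMM, the level used throughout). Mrc1 held 0 to 11 counts in every library and was not tested. Markers of macrophages were abundant: the 9 listed genes summed to 20584 to 35473 CPM per library, most of it from the lysozyme gene Lyz2 (21954 ± 546 CPM in untreated cells; SD, n = 3). The 12 dendritic cell markers, which include MHC class II genes, summed to 4352 to 13168 CPM. The 7 T cell markers summed to 2.05 to 7.49 CPM, the 5 B cell markers to 3.5 to 8.14 CPM, and the 6 fibroblast markers to 0.644 to 4.92 CPM, with the collagen gene Col1a2 at no more than 3 counts in any library. In bulk RNA, fewer cells of a type and less RNA per cell cannot be told apart. Libraries also differed in how GC-rich and GC-poor genes compared. The mean log2 level of the most GC-rich genes (at least 57.7% GC) relative to the most GC-poor genes (at most 41.8%), each gene taken against its mean over all libraries, ran from -1.65 to 0.85. Within isotype 4 h this tilt was -0.85, -1.65 and 0.66 in replicates 1, 2 and 3, and within FcMR 12 h it was -0.75, 0.75 and 0.84. Isotype 4 h replicate 3 and FcMR 12 h replicate 1, each unlike the rest of its group in tilt, are also the pair whose library numbers in the titles stand in each other's place. In the levels of Ccl22, Ccl17 and Pparg both libraries lay with the other replicates of their labelled group. In Il4ra and Tgm2 they lay apart. Isotype 4 h replicate 3 read 134 CPM of Il4ra against 94.8 and 59.5, and 838 of Tgm2 against 485 and 367. FcMR 12 h replicate 1 read 116 CPM of Il4ra against 175 and 166, and 265 of Tgm2 against 394 and 427.

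**Figure D1:**
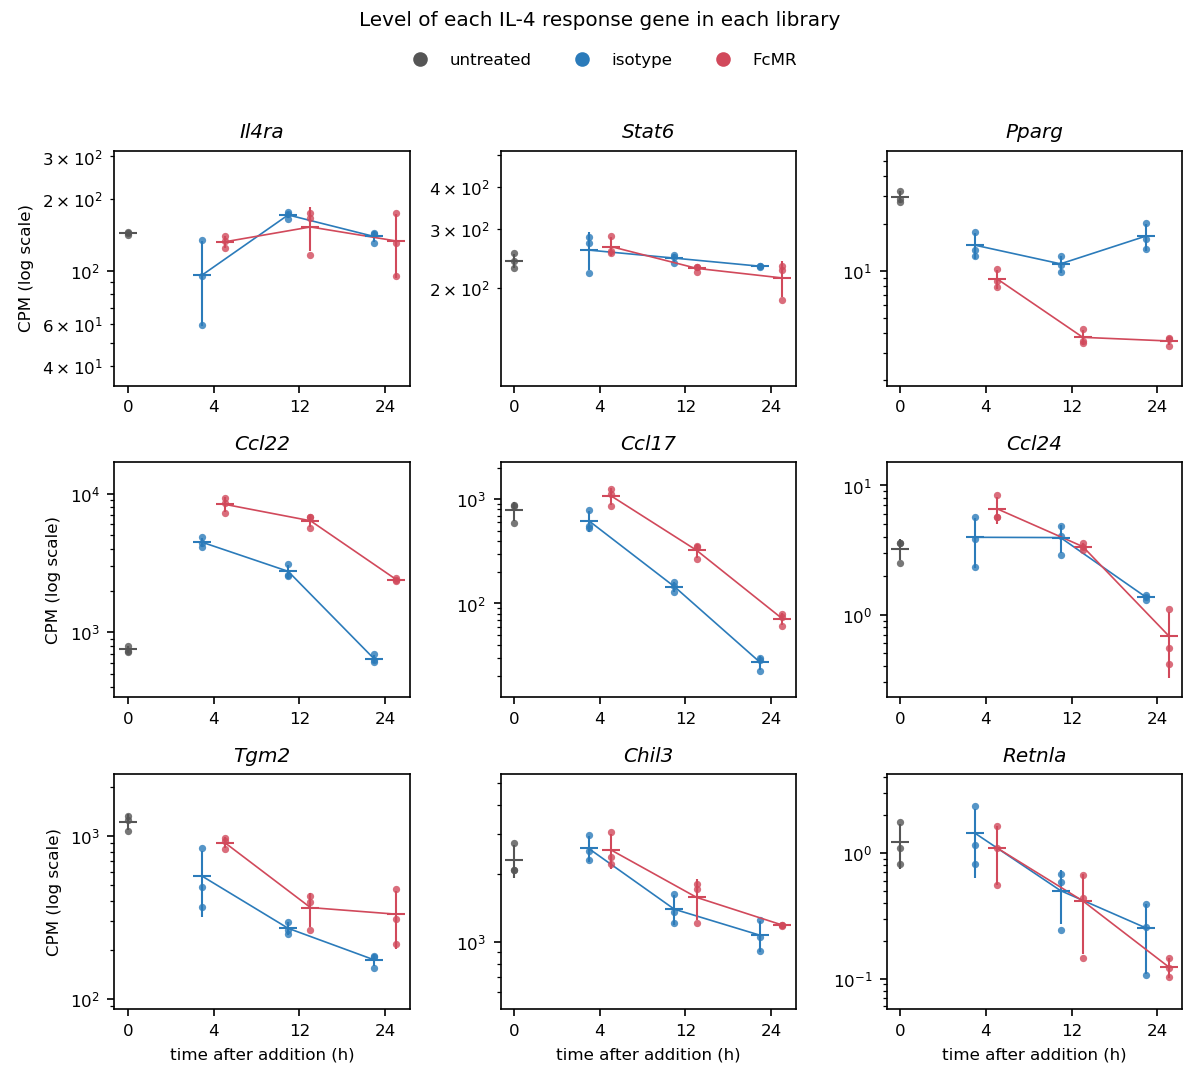
Level of each of the 9 genes (CPM, log10 axis) in each library (points) against time after addition (h), with the mean and SD of the 3 libraries of a group (bars). Ccl22 rose at 4 h in both arms and stayed higher with FcMR at every time, Ccl17 fell from 784 CPM in untreated cells to 27.2 CPM with isotype and 71.3 CPM with FcMR at 24 h, and Pparg was lowest with FcMR.

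A gene was called changed at a Benjamini-Hochberg adjusted p under 0.05 over the 13468 genes, in edgeR's quasi-likelihood test of all 21 libraries. Against isotype, FcMR gave 3 called members at 4 h (Ccl17 and Ccl22 higher, Pparg lower), the same 3 at 12 h, and 4 at 24 h, when Tgm2 was also higher. Among all genes tested, 17.7% were called at 4 h (8.62% up, 9.13% down), 16.1% at 12 h (8.61% up, 7.49% down) and 20.9% at 24 h (11.4% up, 9.44% down). The median log2 fold change of the 9 members was 0.45, -0.10 and -0.07 at the 3 times, against -0.07, -0.02 and 0.01 over all genes tested. The share of calls at 4 h that were higher was 48.6% with TMM scaling and 62.7% with DESeq2's size factors in edgeR, so a direction over all genes at 4 h depends on the scaling. Leaving out isotype 4 h replicate 3 raised the count of called members at 4 h from 3 to 6, adding Ccl24, Il4ra and Tgm2, all higher with FcMR. The same omission raised the number of all genes called from 2390 to 3151. It left isotype 4 h with libraries of GC tilt -0.85 and -1.65, against -0.54 to -0.19 with FcMR at 4 h.

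**Figure D2:**
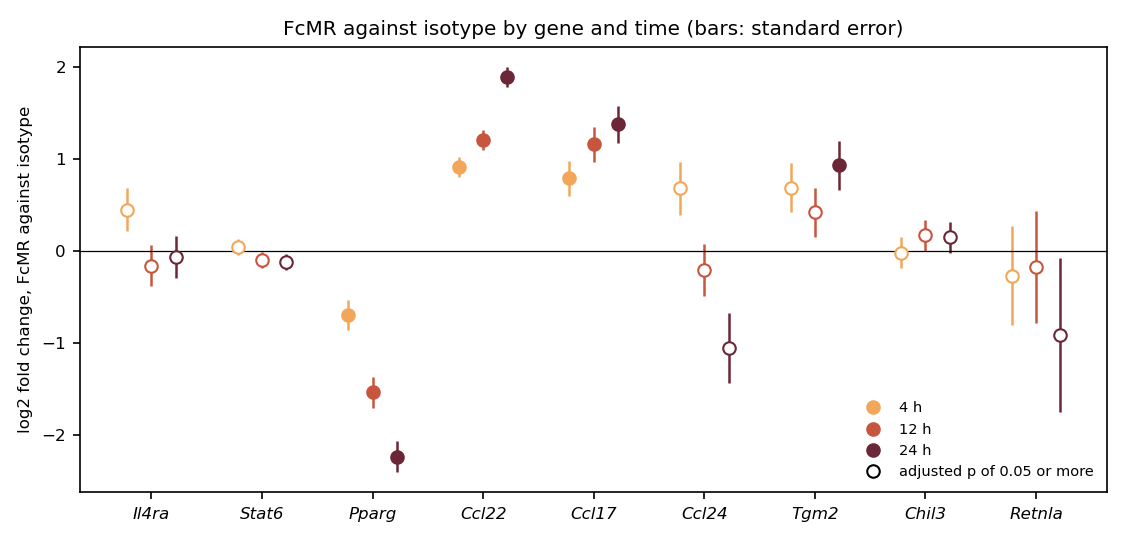
Log2 fold change of FcMR against isotype for each gene at 4, 12 and 24 h, with the standard error of edgeR's fit (bars); filled points passed an adjusted p of 0.05. Ccl22 and Ccl17 lie above 0 and Pparg below 0 at all 3 times, with distances that grow from 4 to 24 h, while Stat6 and Chil3 lie near 0.

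Il4ra, on chromosome 7 from 125552120 to 125579474 on the plus strand (ENSMUSG00000030748; positions of all members are from GENCODE M21, build GRCm38), encodes the signalling chain of the receptor. Its level was similar in most libraries: 145, 141 and 144 CPM in untreated cells, 131, 144 and 142 with isotype at 24 h, and 130, 95.2 and 174 with FcMR at 24 h. With isotype at 4 h the replicates read 94.8, 59.5 and 134 CPM, the widest relative spread of any group for this gene, and with FcMR at 4 h 133, 139 and 124. At 12 h isotype gave 172, 176 and 165 CPM and FcMR 116, 175 and 166. The groups overlapped between FcMR and isotype at every time. FcMR against isotype gave a log2 fold change of 0.45 (SE 0.23, adjusted p = 0.188 by edgeR) at 4 h, -0.16 (adjusted p = 0.74) at 12 h and -0.07 (adjusted p = 0.888) at 24 h, none of them called.

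The Il4ra values followed the GC tilt of the libraries. Its transcripts are 56.0% GC, and the low readings of 59.5, 94.8, 95.2 and 116 CPM came from libraries with a tilt of -1.65, -0.85, -1.32 and -0.75. After a GC correction of each library, isotype at 4 h averaged 107 ± 11.9 CPM (SD, n = 3), FcMR at 4 h 143 ± 4.11 and untreated cells 130 ± 9.84. With that correction the FcMR difference at 4 h was 0.42 (adjusted p = 5.84e-04 by edgeR). In that corrected fit Il4ra was higher with FcMR at 4 h, a call that the uncorrected fit of all libraries did not make. Without the correction but with isotype 4 h replicate 3 left out, the difference was 0.78 (adjusted p = 0.0173 by edgeR). From 12 h on the corrected means lay between 136 and 146 CPM in all 4 groups. Isotype at 4 h against untreated gave -0.58 (adjusted p = 0.057), and values of -0.28 to -0.89 with adjusted p under the threshold in 8 of the other fits, the GC correction among them. Il4ra overlaps the annotated gene Gm44876 on the other strand, and as the counting of strand is not given in the sources used here, reads of the pair cannot be told apart.

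**Figure D3:**
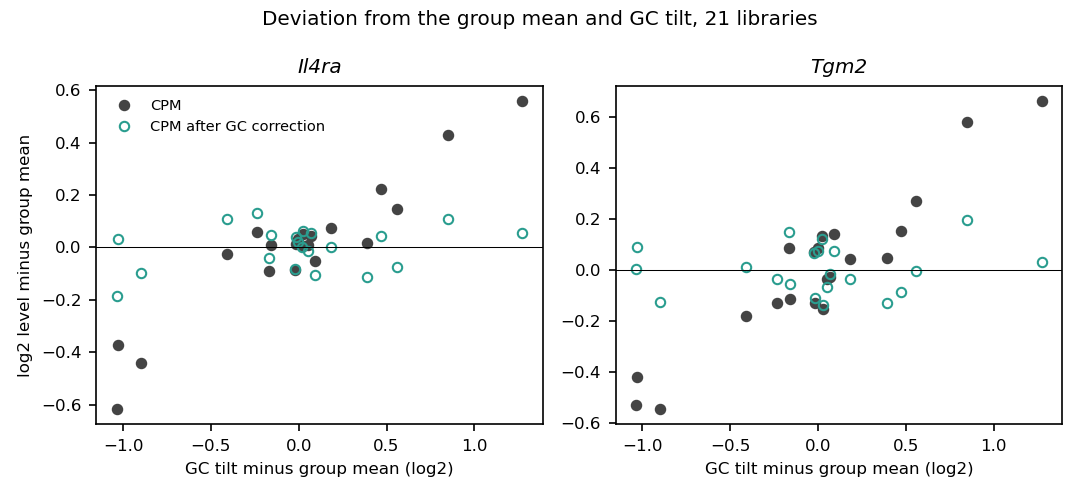
Log2 level of Il4ra and Tgm2 in each of the 21 libraries minus the mean of its group, against the GC tilt of that library minus the mean of its group, before (filled) and after (open) the GC correction. Before the correction both genes rise with the tilt, and isotype 4 h replicate 2 (tilt -1.65), FcMR 24 h replicate 2 (-1.32) and FcMR 12 h replicate 1 (-0.75) hold the lowest value of their group. After it the points of these 3 libraries lie nearer to 0 in both genes; the SD of Il4ra grew in untreated cells (2.25 to 9.84 CPM) and with isotype at 12 h (5.73 to 8.61), and that of Tgm2 with FcMR at 4 h (70.9 to 93.8).

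Stat6 (ENSMUSG00000002147, chromosome 10, 127642986 to 127660957, plus strand) encodes the transcription factor that carries the IL-4 signal. Its group means had the smallest highest-to-lowest ratio of the 9 genes. They ran from 213 CPM with FcMR at 24 h to 265 CPM with FcMR at 4 h, and every neighbouring pair of groups in that order overlapped. Untreated cells read 240, 253 and 229 CPM. At 12 h the FcMR libraries (231, 231 and 223 CPM) all lay below the isotype libraries (251, 247 and 237), although the difference of -0.10 on the log2 scale was not called (adjusted p = 0.579 by edgeR). At 4 h and 24 h the differences were 0.04 (adjusted p = 0.857) and -0.12 (adjusted p = 0.449). Stat6 was called in none of the 9 comparisons of FcMR with isotype or of either with untreated cells. With the GC correction it was higher than untreated at 4 h in both arms, by 0.31 (isotype, adjusted p = 0.0133) and 0.30 (FcMR, adjusted p = 0.0115). Its gene overlaps Nab2 on the minus strand, which limits how its reads can be assigned in the same way as for Il4ra.

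Pparg (ENSMUSG00000000440, chromosome 6, 115360951 to 115490399, plus strand) was lower with FcMR than with isotype at every time, by an amount that grew. Untreated cells held 27.4, 32.4 and 28.9 CPM, above every other library. Isotype libraries held 13.5, 17.7 and 12.5 CPM at 4 h, 12.5, 10.9 and 9.78 at 12 h and 16, 20.2 and 13.8 at 24 h. With FcMR the libraries held 10.2, 8.58 and 7.83 CPM at 4 h, 3.45, 3.58 and 4.23 at 12 h and 3.7, 3.31 and 3.66 at 24 h. No FcMR library overlapped an isotype library of the same time. Pparg overlaps the antisense gene Gm44079, whose reads cannot be told apart from its own without strand.

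FcMR against isotype changed Pparg by a log2 fold change of -0.70 (SE 0.16, adjusted p = 0.00578 by edgeR) at 4 h, -1.54 (SE 0.17, adjusted p = 3.15e-06) at 12 h and -2.24 (SE 0.17, adjusted p = 3.49e-08) at 24 h. The effect at 24 h exceeded that at 4 h by -1.54 (SE 0.24, adjusted p = 2.91e-04), and the joint test over the 3 times gave an adjusted p of 0.001. At 4 h the call was lost when the fit held only the 2 groups compared (adjusted p = 0.0813), without FcMR 4 h replicate 3 (-0.58, adjusted p = 0.057) and without isotype 4 h replicate 2 (-0.50, adjusted p = 0.0619). Against untreated cells Pparg fell in both arms. The log2 fold changes were -1.03, -1.43 and -0.83 with isotype and -1.73, -2.97 and -3.07 with FcMR. The isotype level was lowest at 12 h and higher at 24 h, with no overlap between those groups, whereas FcMR at 12 h and 24 h overlapped.

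Ccl17 and Ccl22 encode chemokines that share the receptor CCR4 and draw T cells, among them type 2 helper and regulatory cells. They lie near each other on the plus strand of chromosome 8, Ccl22 (ENSMUSG00000031779) from 94745590 to 94751699 and Ccl17 (ENSMUSG00000031780) from 94810453 to 94812036. The 58754 bases between them hold 2 annotated genes, of which 1 is protein-coding, Cx3cl1, the gene of the chemokine fractalkine. The sequences just upstream of these genes, of Chil3 and of Retnla are shown here, since they are the members whose promoters either hold a spaced STAT motif or belong to the chemokine pair. They are from RefSeq (GRCm38.p6), end at the base before the gene start of GENCODE M21, and are written on the gene's strand from 5′ to 3′. Capitals mark TTC and GAA spaced by 4 bases (the spacing that STAT6 favours) or by 3 bases (bound by several STATs).
Ccl22, chr8:94745434-94745589, plus strand: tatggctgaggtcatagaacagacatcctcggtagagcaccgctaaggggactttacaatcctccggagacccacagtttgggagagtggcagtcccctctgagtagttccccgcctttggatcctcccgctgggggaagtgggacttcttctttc
Ccl17, chr8:94810203-94810452, plus strand: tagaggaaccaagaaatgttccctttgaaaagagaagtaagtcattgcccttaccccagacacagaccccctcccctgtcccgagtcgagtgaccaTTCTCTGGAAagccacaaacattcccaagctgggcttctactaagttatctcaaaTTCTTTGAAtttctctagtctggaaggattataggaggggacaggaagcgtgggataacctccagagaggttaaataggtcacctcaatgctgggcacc
Chil3, chr3:106167565-106167814, minus strand: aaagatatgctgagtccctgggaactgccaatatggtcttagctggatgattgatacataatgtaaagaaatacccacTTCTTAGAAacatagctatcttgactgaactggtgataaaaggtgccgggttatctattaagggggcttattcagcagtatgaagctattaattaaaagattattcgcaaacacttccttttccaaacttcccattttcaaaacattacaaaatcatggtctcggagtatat
Retnla, chr16:48842359-48842550, plus strand: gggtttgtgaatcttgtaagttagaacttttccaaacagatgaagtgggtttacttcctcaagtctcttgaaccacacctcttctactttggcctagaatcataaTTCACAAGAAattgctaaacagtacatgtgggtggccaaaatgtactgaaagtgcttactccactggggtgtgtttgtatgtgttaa

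Both motifs read the same on either strand, so 1 search covers both, and in these promoters no match of one overlapped a match of the other. In the 250 bases before the RefSeq start, the motif with 4 bases between TTC and GAA occurs in 5.85%, and TTCNNNGAA in 7.02%, of 32851 mouse promoters. Entries were found for 7 of the 9 members, and 3 of these members held a motif. Ccl17 had TTCTCTGGAA at 154 to 145 bases before the start and TTCTTTGAA at 99 to 91. Chil3 had TTCTTAGAA at 172 to 164 bases and Retnla TTCACAAGAA at 145 to 136 bases. These distances are counted from the RefSeq start, which for Retnla and Ccl22 lies inside the gene as GENCODE M21 annotates it, so that the printed stretch of these 2 genes ends further upstream. Neither set of letters is in the searched windows of Ccl22, Il4ra, Pparg (3 entries) or Stat6.

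Ccl22 rose within 4 h of either protein, and more with FcMR. Untreated cells held 715, 801 and 738 CPM. At 4 h isotype libraries read 4828, 4123 and 4396 CPM and FcMR libraries 8563, 9312 and 7221. At 12 h the readings were 2555, 3108 and 2583 CPM with isotype and 6734, 6719 and 5642 with FcMR. By 24 h the isotype libraries, at 610, 697 and 629 CPM, lay just below the untreated libraries, while the FcMR libraries still held 2378, 2462 and 2356. FcMR and isotype did not overlap at any time.

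The isotype arm alone rose over untreated cells by a log2 fold change of 2.57 at 4 h (adjusted p = 8.90e-12 by edgeR) and 1.87 at 12 h (adjusted p = 2.98e-10), with -0.22 (adjusted p = 0.109) at 24 h. FcMR exceeded isotype by 0.91 (SE 0.11, adjusted p = 1.19e-05) at 4 h, 1.21 (SE 0.11, adjusted p = 3.10e-07) at 12 h and 1.89 (SE 0.11, adjusted p = 1.09e-09) at 24 h. The effect was larger at 24 h than at 4 h by 0.98 (SE 0.15, adjusted p = 3.01e-04), and the joint test over time gave an adjusted p of 8.61e-04. The peak with FcMR came at 4 h, so the widening ratio accompanied falling levels in both arms. Against untreated cells the FcMR arm stood 3.48, 3.08 and 1.67 higher on the log2 scale at 4, 12 and 24 h.

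Ccl17 was higher with FcMR than with isotype at each time, while it fell from the untreated level in both arms by 12 h. Untreated cells held 892, 861 and 599 CPM. Isotype libraries read 787, 530 and 561 CPM at 4 h, 160, 147 and 129 at 12 h and 28.9, 30.1 and 22.5 at 24 h. FcMR libraries read 1128, 1259 and 865 CPM at 4 h, 349, 358 and 265 at 12 h and 73.8, 61.1 and 78.9 at 24 h. At each time all FcMR libraries lay above all isotype libraries, and both arms were lowest at 24 h.

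FcMR exceeded isotype in Ccl17 by a log2 fold change of 0.79 (SE 0.19, adjusted p = 0.00674 by edgeR) at 4 h, 1.16 (SE 0.19, adjusted p = 2.87e-04) at 12 h and 1.38 (SE 0.20, adjusted p = 5.34e-05) at 24 h. A change of that effect over time was not called (joint adjusted p = 0.33). Relative to untreated cells, isotype gave -0.33 (adjusted p = 0.195) at 4 h, -2.43 (adjusted p = 2.14e-08) at 12 h and -4.85 (adjusted p = 1.95e-11) at 24 h. The FcMR arm was 0.47 above untreated at 4 h (adjusted p = 0.0493), and below it at 12 h (-1.27) and 24 h (-3.46). The 4 h call was lost without FcMR replicate 1 (0.45, adjusted p = 0.107) or 2 (0.36, adjusted p = 0.182) and without untreated replicate 2 (0.54, adjusted p = 0.0538) or 3 (0.31, adjusted p = 0.222), and with no filter on low counts (0.49, adjusted p = 0.0677). With only the 2 groups in the fit, the FcMR difference from isotype at 4 h had an adjusted p of 0.0635.

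From 4 h to 24 h the ratio of Ccl22 to Ccl17 counts within a library differed more between times than between FcMR and isotype. It was 0.988 ± 0.22 in untreated cells (SD, n = 3). At 4 h it was 7.25 ± 0.964 with isotype and 7.78 ± 0.503 with FcMR, and at 12 h 19 ± 2.75 and 19.8 ± 1.32. At 24 h the FcMR libraries, at 29.9 to 40.3, all lay above the isotype libraries, at 21.1 to 27.9. The 3 comparisons of FcMR with isotype gave exact two-sided permutation p-values of 0.6, 0.8 and 0.1, where 0.1 is the smallest that 3 against 3 libraries allow (0.8, 0.8 and 0.3 after adjustment over the 3). The ratio depends on transcript length, so only its change between groups can be read. Per kilobase of transcript, the 2 genes stood in untreated cells at 339 ± 20 (Ccl22) and 1526 ± 313 CPM per kb (Ccl17).

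**Figure D4:**
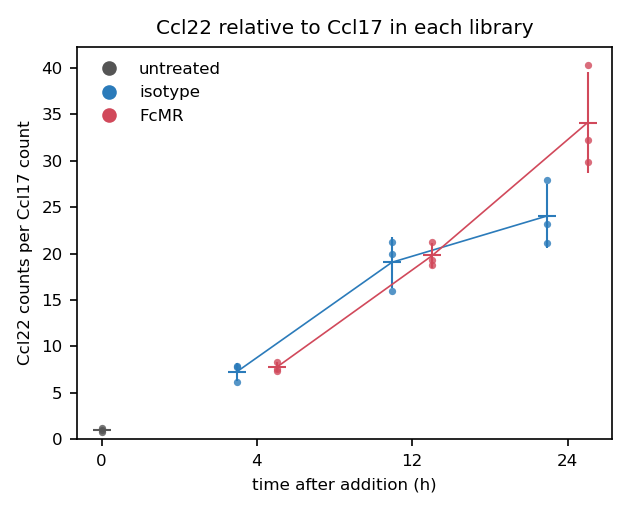
Counts of Ccl22 per count of Ccl17 in each library (points), with the mean and SD of the 3 libraries of a group (bars), against time after addition (h, spaced evenly). The ratio climbs from 0.988 in untreated cells to 24.1 with isotype and 34.1 with FcMR at 24 h, with both arms close together at 4 h and 12 h.

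Ccl24 (ENSMUSG00000004814, chromosome 5, 135569937 to 135573049, minus strand) encodes eotaxin-2, an attractant of eosinophils that acts on CCR3. Its level was low throughout. Untreated cells held 2.53, 3.59 and 3.6 CPM, isotype at 4 h 3.88, 2.35 and 5.68 and FcMR at 4 h 5.67, 5.75 and 8.38. At 12 h it read 2.92, 4.84 and 4.09 CPM with isotype and 3.16, 3.58 and 3.35 with FcMR. At 24 h the isotype libraries, at 1.37, 1.29 and 1.42 CPM, lay above the FcMR libraries, at 0.411, 0.551 and 1.1 CPM, which rested on 4 to 15 counts each.

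The FcMR difference in Ccl24 turned from 0.68 (SE 0.29, adjusted p = 0.123 by edgeR) at 4 h to -1.06 (SE 0.38, adjusted p = 0.0582) at 24 h, with -0.21 (adjusted p = 0.731) at 12 h. None of the 3 was called, but the change between 4 h and 24 h was, at -1.74 (SE 0.48, adjusted p = 0.0222). That call was lost without FcMR 24 h replicate 1 (-1.57, adjusted p = 0.0538) or replicate 2 (-1.55, adjusted p = 0.0803) and in a fit without the untreated and 12 h groups (adjusted p = 0.0725). The joint test over the 3 times missed the threshold (adjusted p = 0.057), but passed it in 8 alternatives, among them DESeq2 (0.0222), DESeq2's size factors (0.0434) and the GC correction (0.0203). The 4 h difference was called by edgeR without isotype 4 h replicate 3 (1.04, adjusted p = 0.0255), also with FcMR 12 h replicate 1 left out too (1.04, 0.0241). The 24 h difference was called without FcMR 24 h replicate 3 (-1.42, adjusted p = 0.0137) and without those 2 libraries (-1.06, 0.0406). It was called as well with limma (-1.27, 0.0451), the GC correction (-1.05, 0.0367) and the replicate number as a block (-1.08, 0.03). Neither difference was called in the other alternatives. Relative to untreated cells, Ccl24 was higher with FcMR at 4 h by 0.99 (adjusted p = 0.00822), and lower at 24 h by -1.26 with isotype (adjusted p = 0.00441) and by -2.32 with FcMR (adjusted p = 2.18e-05). The isotype call was lost with limma on the authors' normalized values (-0.93, adjusted p = 0.0961).

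Tgm2 (ENSMUSG00000037820, chromosome 2, 158116402 to 158146436, minus strand) encodes tissue transglutaminase, an enzyme that cross-links proteins and a marker of alternative activation in both mouse and human macrophages. It was highest in untreated cells, at 1254, 1072 and 1330 CPM, and lower in both arms at 12 h and 24 h. Isotype libraries held 485, 367 and 838 CPM at 4 h, 249, 264 and 297 at 12 h and 181, 155 and 183 at 24 h. FcMR libraries held 828, 934 and 963 CPM at 4 h, 265, 394 and 427 at 12 h and 306, 215 and 468 at 24 h. The groups overlapped at 4 h and 12 h and were separate at 24 h, where all FcMR libraries were above isotype.

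FcMR against isotype gave 0.69 (SE 0.27, adjusted p = 0.0883 by edgeR) at 4 h, 0.42 (SE 0.27, adjusted p = 0.364) at 12 h and 0.93 (SE 0.27, adjusted p = 0.0198) at 24 h. The 24 h call was lost without FcMR 24 h replicate 3, which held the highest value (0.60, adjusted p = 0.104), and without isotype 24 h replicate 2 (0.87, adjusted p = 0.0699). Tgm2 transcripts are the most GC-rich of the 9, at 57.1%, and the spread within its groups followed the tilt of the libraries. After the GC correction the SD shrank in every group except FcMR at 4 h, and Tgm2 averaged 640 ± 15 CPM with isotype and 1008 ± 93.8 with FcMR at 4 h, 204 ± 9.33 and 313 ± 19 at 12 h, and 177 ± 14.3 and 373 ± 45.8 at 24 h (SD, n = 3). The 4 h difference was called with DESeq2 (0.77, adjusted p = 0.0243), with limma (0.84, adjusted p = 0.0344) and without isotype 4 h replicate 3 (1.10, adjusted p = 0.00503). In the GC-corrected fit FcMR was higher at 4 h (0.66, adjusted p = 1.34e-05) and at 12 h (0.62, adjusted p = 2.80e-05) as well. Isotype against untreated gave -1.11, -2.17 and -2.82 at the 3 times, all called. Tgm2 overlaps Rprd1b and Gm20412, so its reads may include theirs.

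Chil3 (ENSMUSG00000040809, chromosome 3, 106147554 to 106167564, minus strand) encodes a secreted chitinase-like protein without enzyme activity, abundant in alternatively activated and in GM-CSF-grown mouse macrophages. Untreated cells held 2082, 2080 and 2724 CPM. With isotype the libraries read 2287, 2955 and 2513 CPM at 4 h, 1354, 1210 and 1621 at 12 h and 1050, 912 and 1251 at 24 h. With FcMR they read 2381, 2207 and 3053 CPM at 4 h, 1803, 1209 and 1706 at 12 h and 1191, 1192 and 1180 at 24 h. Levels at 12 h and 24 h were below untreated in both arms, and the arms overlapped at every time. FcMR against isotype gave -0.02 (adjusted p = 0.959 by edgeR), 0.17 (adjusted p = 0.609) and 0.15 (adjusted p = 0.619), and the sign at 4 h turned to 0.04 with DESeq2's size factors. Isotype was below untreated at 12 h (-0.72, adjusted p = 0.00248) and 24 h (-1.10, adjusted p = 5.04e-05), after 0.17 (adjusted p = 0.463) at 4 h. FcMR was below it as well (-0.55, adjusted p = 0.0132, and -0.95, adjusted p = 1.65e-04), and the 12 h value lost its call without untreated replicate 3 (-0.40, adjusted p = 0.0847) or FcMR 12 h replicate 2 (-0.36, adjusted p = 0.106). Chil4, a near copy with which reads could be shared, held only 2 to 29 counts in any library.

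Retnla (ENSMUSG00000061100, chromosome 16, 48842551 to 48844461, plus strand), the gene of the secreted protein RELMα and a hallmark of IL-4-treated mouse macrophages, was near the detection limit, with overlapping arms at every time. Untreated libraries held 18, 24 and 10 counts (1.75, 1.1 and 0.817 CPM). At 4 h isotype libraries held 8, 13 and 7 counts and FcMR libraries 23, 29 and 3, and at 12 h 12, 4 and 16 against 9, 5 and 3. At 24 h isotype libraries held 4, 1 and 2 counts and FcMR libraries 1, 4 and 1. Pooled over the 3 libraries, the level at 24 h relative to untreated was 0.218 with isotype (95% exact interval 0.0837 to 0.483) and 0.113 with FcMR (0.0397 to 0.263), where the intervals cover counting error only. FcMR relative to isotype at 24 h was 0.518, with an interval of 0.144 to 1.8, so a difference was not detectable at this depth. By edgeR the FcMR difference from isotype was -0.27, -0.18 and -0.92 at 4, 12 and 24 h, none called. In edgeR's test Retnla fell from untreated at 24 h with isotype (-2.21, adjusted p = 0.0104) and with FcMR (-3.13, adjusted p = 7.73e-04). The 24 h call for isotype was lost without isotype 24 h replicate 2 (-1.81, adjusted p = 0.0629). At 12 h the calls (isotype -1.42, adjusted p = 0.0463, and FcMR -1.60, adjusted p = 0.0259) were lost without untreated replicate 1 (adjusted p = 0.172 and 0.108). They were lost as well for isotype without untreated replicate 2 or isotype 12 h replicate 2 or 3 (adjusted p = 0.0814, 0.073 and 0.286), and for FcMR without FcMR 12 h replicate 2 or 3 (adjusted p = 0.0587 and 0.148). Other fits lost them too: for isotype those with no filter (adjusted p = 0.0783), DESeq2 (0.0677) and limma (0.108), and for FcMR the fit of only the groups compared (0.0527).

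Against untreated cells, isotype gave 3 called members at 4 h (1 higher, 2 lower), 6 at 12 h (1 higher, 5 lower) and 6 at 24 h (all lower). Of all genes tested, 35.6% were called at 4 h (20.4% up, 15.2% down), 41.6% at 12 h (22% up, 19.6% down) and 42.2% at 24 h (21.3% up, 20.9% down). FcMR against untreated gave 4 called members at 4 h (3 higher, 1 lower), 6 at 12 h (1 higher, 5 lower) and 7 at 24 h (1 higher, 6 lower). The background was 48.2% at 4 h (22.3% up, 25.9% down), 48.1% at 12 h (24.7% up, 23.4% down) and 51.4% at 24 h (26% up, 25.4% down). Both sets of comparisons share the untreated libraries. The FcMR effect differed between 24 h and 4 h in 3 members (Ccl22 higher, Pparg and Ccl24 lower), where 13.9% of all genes were called (8.19% higher and 5.72% lower). In the joint test over the 3 times 2 members were called, Ccl22 and Pparg, against 11% of all genes.

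Among 14 ligands, receptor chains and signalling genes of IL-4 and IL-13, 11 were tested. With FcMR 4 of the 11 were higher than with isotype at 4 h, 3 at 12 h and 2 at 24 h, and none was called lower, where 8.62%, 8.61% and 11.4% of all genes tested were called higher. Cish, a STAT-induced inhibitor of cytokine signalling, changed most, from 23.4 ± 6.17 CPM with isotype to 84 ± 10.2 with FcMR at 4 h (SD, n = 3; log2 fold change 1.84, adjusted p = 8.40e-06 by edgeR), then by 0.91 and 0.76 at 12 h and 24 h. Jak2, a Janus kinase that serves many cytokine receptors, was higher by 0.59, 0.52 and 1.19 at the 3 times. Socs1, another inhibitor, was higher at 12 h (1.52, adjusted p = 0.0468). Il2rg, the shared chain of the IL-4 receptor, and Irs2, an adaptor of that receptor, were called higher at 4 h (0.39 and 0.97). The count at 4 h was 8 with the GC correction and 1 with only the 2 groups in the fit. Over all genes, those fits called 2353 and 628 higher at 4 h, where the first fit called 1161. Leaving out isotype 12 h replicate 1 or 3 left 1 of the 3 at 12 h, and at 24 h 1 was left without FcMR replicate 1 or 3 or isotype replicate 2 or 3. Il4 held 1 to 26 counts and Il13 0 to 17 counts in any library, and neither was tested.

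Among 22 other alternative activation genes, 19 were tested. FcMR gave 5 higher and 2 lower at 4 h, where 12 h gave 2 higher and 8 lower and 24 h gave 1 higher and 8 lower, with medians of 0.12, -0.64 and -0.52. Over all genes tested, the shares called higher and lower were 8.62% and 9.13% at 4 h, 8.61% and 7.49% at 12 h, and 11.4% and 9.44% at 24 h. Myc, a transcription factor of growth, was lower with FcMR at 12 h (-1.75) and 24 h (-1.91), from an isotype level of 12.4 ± 0.859 and 10.9 ± 0.732 CPM. Flt1, a receptor for vascular growth factors, was lower at the same times (-0.59 and -1.57), and Fn1, the gene of fibronectin, was higher at 4 h (0.55) and lower at 24 h (-1.54). Cd200r1, an inhibitory receptor, was lower at all 3 times (-0.85, -1.06 and -1.07), and so was the transcription factor Egr2 (-0.59, -0.76 and -0.45). Irf4, a transcription factor needed for alternative activation, was higher at all 3 times (0.50, 0.60 and 0.70), and Pdcd1lg2, the gene of PD-L2, was higher at 4 h (0.63) and lower at 12 h (-0.69). The Irf4 mean fell in both arms, from 118 CPM in untreated cells to 50.3 with FcMR and 31.1 with isotype at 24 h. Without FcMR 24 h replicate 2 the lower count at 24 h was 5, and without FcMR 4 h replicate 3 or isotype 4 h replicate 3 the lower count at 4 h was 1. Arg1, the arginase gene most used as a marker of this state, held 27.5 ± 11.1 CPM in untreated cells and 1.11 to 5.19 CPM on average in the treated groups, with no call between FcMR and isotype.

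Of 17 partner and target genes of PPARγ, 14 were tested. FcMR gave 4 lower and 2 higher at 4 h, then 8 and 1 at 12 h, then 7 and 1 at 24 h, with medians of -0.22, -0.50 and -0.54 against -0.07, -0.02 and 0.01 over all genes tested, of which 9.13%, 7.49% and 9.44% were called lower and 8.62%, 8.61% and 11.4% higher. The count at 4 h was unsteady: DESeq2's size factors left 1 lower and 2 higher, and leaving out FcMR replicate 2 or 3 or isotype replicate 1 or 2 left 1 or 2 lower. Over all genes, DESeq2's size factors called 839 lower and 1412 higher at 4 h, where TMM scaling called 1229 and 1161. At 12 h 5 were lower without FcMR replicate 3 or isotype replicate 1 or 2. Fabp4, a fatty acid binding protein, read 31 ± 5.15 CPM with FcMR at 12 h, where isotype gave 80.2 ± 10.7 (-1.37, adjusted p = 3.44e-07 by edgeR) and 46.8 ± 2.45 and 137 ± 8.69 at 24 h (-1.55, adjusted p = 4.80e-08). Lipoprotein lipase (Lpl) was lower at all 3 times (-0.42, -0.57 and -1.01). The scavenger receptor Cd36 (-0.46 and -1.28) and the lipid droplet protein gene Plin2 (-0.57 and -0.95) were lower at 12 h and 24 h. Means in untreated cells were 104 CPM for Fabp4, 2740 for Lpl, 988 for Cd36 and 612 for Plin2. Lpl averaged 2963, 3075 and 2982 CPM with FcMR and 3956, 4570 and 6026 with isotype. At 24 h Cd36 averaged 944 CPM with FcMR and 2285 with isotype, and Plin2 279 and 539. At 24 h the FcMR means of Lpl and Cd36 lay near untreated, with isotype above, and those of Fabp4 and Plin2 below untreated. Angptl4 was lower with FcMR than with isotype at 4 h (-1.50) and 12 h (-1.05), with 4 to 15 counts per library at 4 h. Car4, the gene of a carbonic anhydrase, was higher at all 3 times (0.96, 1.45 and 1.50), and Acadl, an enzyme of fatty acid oxidation, was higher at 4 h (0.41). The Car4 mean fell in both arms, from 172 CPM in untreated cells to 25.9 with FcMR and 9.01 with isotype at 24 h.

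**Figure D5:**
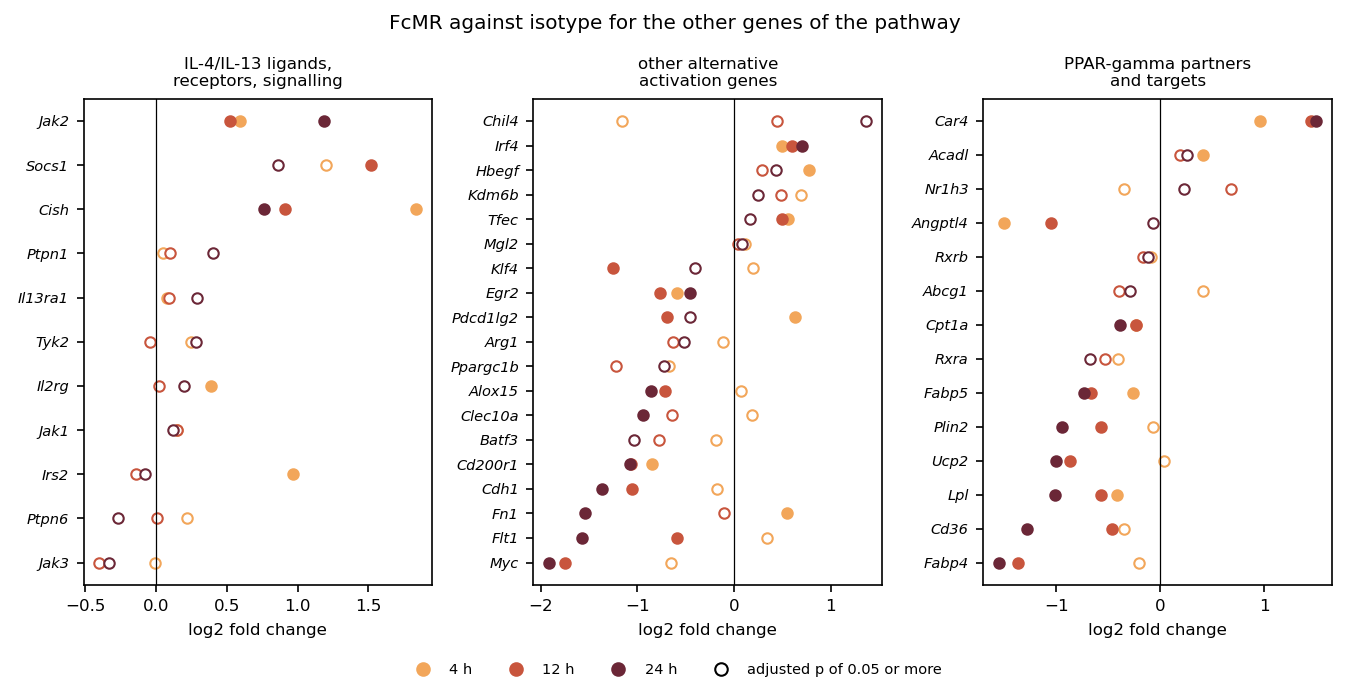
Log2 fold change of FcMR against isotype at 4, 12 and 24 h for each tested gene of 3 lists (IL-4 and IL-13 signalling, other alternative activation genes, PPARγ partners and targets). Filled points passed an adjusted p of 0.05, and each row is 1 gene. The medians of the signalling list are 0.25, 0.09 and 0.28, and those of the PPARγ list -0.22, -0.50 and -0.54.

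Of the receptors for the 3 chemokines, Ccr4 was detected at a low level, from 1 to 6 counts in untreated libraries to 48 to 83 with FcMR at 12 h. It was higher with FcMR than with isotype by 1.39 (adjusted p = 0.0438 by edgeR), 2.49 (adjusted p = 3.06e-04) and 1.71 (adjusted p = 0.0289) at the 3 times. Ccr3 was not called between FcMR and isotype at any time; against untreated cells (2.18 ± 0.377 CPM) it was called lower with isotype at 12 h (0.691 ± 0.476 CPM).

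Markers of other cells that a GM-CSF marrow culture can hold also moved with time. Of all genes tested, 20.9% with isotype and 25.4% with FcMR were called lower than untreated at 24 h. The summed level of 8 eosinophil markers went from 726 to 950 CPM in untreated libraries to 106 to 150 with isotype and 86.6 to 118 with FcMR at 24 h, and 6 and 7 of the 8 were called lower than untreated at that time. Of 12 granulocyte markers 11 were called lower than untreated at 24 h in each arm, with a median log2 fold change of -3.34 with isotype and -4.62 with FcMR. Their summed level, 1826 to 2008 CPM in untreated libraries and 1411 to 1497 with isotype and 600 to 749 with FcMR at 24 h, was carried at 24 h by Mmp8, which held 370 ± 38.8 CPM in untreated cells, 1248 ± 60.5 with isotype and 451 ± 68.2 with FcMR. Between FcMR and isotype, 8.62%, 8.61% and 11.4% of all genes tested were called higher at 4, 12 and 24 h. The shares called lower were 9.13%, 7.49% and 9.44%. Of the 8 eosinophil markers 1 was called lower with FcMR at 12 h and 24 h, Siglecf (-1.19 and -2.13). Of the granulocyte markers 3 were lower at 24 h, Ltf (-2.27), Mmp8 (-1.47) and Ngp (-0.91), while S100a8 was higher (0.69). Among macrophage markers 5 of 9 were lower and 2 higher at 24 h, with Cd14 higher by 2.19 and C5ar1 (-1.29) and Fcgr1 (-1.16) lower. Of 12 dendritic cell markers 3 were higher at 24 h, Ccr7 (0.76), Ciita (0.71) and Zbtb46 (0.69), and 1 lower. The 7 basophil and mast cell markers summed to 11.5 to 76.7 CPM. All 7 were called lower than untreated at 24 h in each arm, with a median log2 fold change of -1.95 with isotype and -1.97 with FcMR. Between FcMR and isotype, Hdc of this list was higher with FcMR at 4 h (1.73) and 12 h (2.10). Of the 6 fibroblast markers 2 were tested, and Dcn was higher with FcMR at 12 h (2.03, adjusted p = 0.0424 by edgeR) and at 24 h (4.69, adjusted p = 2.88e-04; 2.97 ± 0.638 CPM against 0.0981 ± 0.17). The part of these cells in the levels of Chil3, Retnla, Ccl17, Ccl22, Ccl24, Tgm2 and Pparg was not tested.

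The genes whose log2 CPM followed each member most closely over the 21 libraries were taken from 10370 candidates, with Pearson's r as a description of libraries that share their groups and GC tilt. Ccl22 was followed by Cd40 (0.98), Nrp2 (0.98) and Gbp3 (0.97), and Ccl17 by Dirc2 (0.98), Grhl1 (0.97) and Tnfrsf9 (0.97). Lists this short cannot show how alike the 2 chemokine genes are, and r between Ccl22 and Ccl17 was 0.51. Pparg was followed by Ank (0.96), Cd28 (0.96) and Mbnl1 (0.95). Tgm2 lay closest to Nr4a1 (0.94), Trp53i11 (0.94) and Cx3cl1 (0.94), the gene between Ccl22 and Ccl17. Chil3 lay closest to Ear2 (0.95), S100a8 (0.95) and Snap29 (0.94), and Retnla to Ear6 (0.94), BC100530 (0.93) and Olfr920 (0.91). Ear2 and Ear6 encode eosinophil-associated ribonucleases and S100a8 a calprotectin subunit of granulocytes and monocytes. Il4ra was nearest to Os9 (0.96), Dhx38 (0.96) and Trappc9 (0.95), Ccl24 to Eif4g1 (0.93), Axl (0.92) and Clcn6 (0.92), and Stat6, which varied least, to Eno3 (0.85), Eps15l1 (0.84) and Lrrc32 (0.84).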

How the data were processed

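Gene expression was measured by RNA-seq (TruSeq kit, single-end reads of 75 bases, per the labels' protocols). The authors deposited a table of whole numbers per gene, treated here as estimated counts because kallisto 0.44.0 is named in the submitters' processing notes, so no rounding was needed, although the planned design had assumed plain counts. Those notes also name CASAVA 1.8.2, DESeq2 and the builds mm10 and GRCm38, with no role or order. A second deposited table holds a normalized signal, the authors' scaling of the first table by a factor that differs between genes and libraries. It was used only for the limma alternative. The table lists genes with at least 10 counts summed over the libraries.

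IDs were matched without version to GENCODE M21, which gave a symbol for 23187 genes. The main test was edgeR 4.0.16's quasi-likelihood test (R 4.3.3), 1 fit of 21 libraries with a coefficient per group, TMM scaling, filterByExpr (minimum count 10) and Benjamini-Hochberg adjustment over 13468 genes, tested on simulated data first. Values are CPM after TMM scaling, mean ± SD over 3 libraries; log2 fold changes carry the fit's standard error. Intervals and floors (3 counts) cover counting error only, since reads carry no molecular identifiers. Replicates correlated at r = 0.92 to 0.987 and differed by more than sampling noise, so each was counted once.

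The GC correction removed a lowess trend (span 0.3) of each library's log2 level on transcript GC content, known for 13440 tested genes, as an offset. Alternatives were DESeq2's size factors in edgeR, no filter, DESeq2 1.42.0, limma 3.58.1 on the authors' normalized values (pseudocount 1), the replicate block, the GC correction, only the groups compared, each library left out in turn, and leaving out the 2 libraries out of title order. All 9 members are described. From each other list up to 3 genes were named by rule, those with the largest called fold change at an average log2 CPM of at least 1: Cish, Socs1, Jak2, Myc, Flt1, Fn1, Fabp4, Car4, Angptl4, Cd14, C5ar1, Fcgr1, Ccr7, Ciita, Zbtb46, Ltf, Mmp8, Ngp, Siglecf and Hdc. Any other gene of a list that is named was chosen after its values were seen. The 3 closest patterns per member used log2 CPM with a prior count of 2. The members and lists were chosen with earlier results of these data known.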

Additional observations from a re-analysis of the deposited data

Results flagged for a closer look

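The FcMR effect differed between 24 h and 4 h in 3 of the 9 genes by a test of the difference itself, where 13.9% of all genes were called. The joint test over 4, 12 and 24 h called 11% of all genes. For Ccl22 the joint test over 4, 12 and 24 h gave an adjusted p of 8.61e-04 (edgeR), and the log2 fold change at 24 h exceeded that at 4 h by 0.98, with FcMR higher in all 3 libraries against all 3 at each time. For Pparg the joint adjusted p was 0.001 and the difference -1.54, with FcMR lower in all 3 libraries at each time. For Ccl24 the difference was -1.74, from 0.68 at 4 h to -1.06 at 24 h, on 4 to 15 counts per FcMR library at 24 h, and the joint test missed the threshold (adjusted p = 0.057), though it passed in 8 of the alternatives, DESeq2 (0.0222) among them. The call for the Ccl24 difference was lost without FcMR 24 h replicate 1 (adjusted p = 0.0538 by edgeR) or replicate 2 (0.0803). It was lost as well with only the groups compared (0.0725).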

How the results depend on the processing

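Of 1542 values of single members under the alternatives, 1424 kept their direction and their side of the threshold, 30 lost and 45 gained a call, and 43 changed sign, none of these 43 called in the first fit. The cause was not tested for any of them. The count of called members moved with the GC correction to 5 for FcMR against isotype at 4 h (from 3), to 5 for isotype against untreated at 4 h (from 3), to 5 for the effect at 24 h against 4 h (from 3) and to 5 in the joint test over time (from 2). In the same order, the number of all genes called went from 2390 to 3878, 4792 to 5994, 1873 to 3293 and 1484 to 3159. For FcMR against isotype at 4 h the count of called members was 6 without isotype 4 h replicate 3 and FcMR 12 h replicate 1. It was 1 with only the groups compared, which leaves fewer libraries to estimate the spread. Leaving out 1 library gave 2 to 6 members, where the number of all genes called ran from 1589 to 3151.

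Changes of sign were these. With the GC correction Chil3 gave 0.11 for FcMR against isotype at 4 h, -0.03 for isotype against untreated at 4 h and -0.03 for the effect at 24 h against 4 h. Stat6 gave -0.01 and 0.01 for FcMR against isotype at 4 h and 12 h and -0.10 for isotype against untreated at 12 h. Il4ra gave 0.06 for FcMR against isotype at 24 h, 0.10 for isotype against untreated at 24 h, and 0.13 and 0.17 for FcMR against untreated at 4 h and 24 h. Ccl24 gave -0.00 for FcMR against untreated at 12 h. Chil3 for FcMR against isotype at 4 h was 0.04 with DESeq2's size factors, with DESeq2 and with limma, and 0.09 with no filter. With limma Il4ra gave 0.03 for FcMR against isotype at 12 h, and 0.34 and 0.22 for isotype and FcMR against untreated at 24 h, and Stat6 gave -0.04 for isotype against untreated at 12 h. With only the groups compared, Il4ra gave 0.00 for isotype against untreated at 24 h and Retnla 0.06 for FcMR against untreated at 4 h. Without the 2 libraries out of title order, Ccl24 gave -0.05 for isotype against untreated at 4 h and Tgm2 -0.16 for the effect at 24 h against 4 h. That Tgm2 value was 0.24 in the first fit, and with the GC correction it was 0.42 and called (adjusted p = 0.0209 by edgeR). Il4ra was also called there (-0.36, adjusted p = 0.0281). In the joint test the corrected fit gave an adjusted p of 0.0186 for Tgm2 and 0.017 for Il4ra.

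Leaving out 1 library at a time, signs changed within these ranges. For FcMR against isotype they were -0.62 to 0.28 (Retnla), -0.12 to 0.12 (Chil3) and -0.03 to 0.12 (Stat6) at 4 h, -0.74 to 0.29 (Retnla) at 12 h and -0.30 to 0.13 (Il4ra) at 24 h. For isotype against untreated they were -0.34 to 0.51 (Retnla) and -0.05 to 0.52 (Ccl24) at 4 h, -0.01 to 0.07 (Stat6) at 12 h and -0.05 to 0.03 (Il4ra) at 24 h. For FcMR against untreated they were -0.41 to 0.24 (Retnla) at 4 h, -0.09 to 0.13 (Ccl24) at 12 h and -0.31 to 0.13 (Il4ra) at 24 h, and for the effect at 24 h against 4 h -0.16 to 0.47 (Tgm2).

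No label says what a replicate number stands for. The deviations of same-numbered libraries from the group means correlated at -0.37 to 0.34, and in no comparison was every pair above 0.1. With the replicate number as a block, 4, 3 and 5 members were called for FcMR against isotype at 4, 12 and 24 h, adding Tgm2 at 4 h (0.75) and Ccl24 at 24 h (-1.08). The number of all genes called rose as well, to 2541, 2290 and 2911 from 2390, 2169 and 2813 in the first fit. The block also brought a call for Il4ra in isotype against untreated at 4 h (-0.60) and for Ccl24 in the joint test over time (adjusted p = 0.0257).

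The number of all genes called for FcMR against isotype at 4 h, 2390, became 3878 with the GC correction, 3898 without the 2 libraries out of title order, 868 with only the groups compared and 1589 without FcMR 4 h replicate 2. At 12 h 2169 became 3544 with the GC correction, and isotype against untreated at 4 h went from 4792 to 2881 with only the groups compared. For the effect at 24 h against 4 h 1873 ranged from 1038 (only the groups compared) to 3713 (without the 2 libraries), and in the joint test 1484 ranged from 925 (no filter) to 3159 (GC correction); without isotype 4 h replicate 3 they were 2831 and 2294. Depth limits Retnla most, at 1 to 29 counts, and Ccl24 at 24 h.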
